A study of Mus musculus with 6 samples.

Results

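The lysyl oxidase family of the mouse, Lox, Loxl1, Loxl2, Loxl3 and Loxl4, was followed by mRNA sequencing in a mammary carcinoma line with and without induction of miR-200c. The 5 members were found by gene symbol among the 43548 gene identifiers of the expression table. The rule takes the whole family by symbol and uses measured levels only to choose between rows of a repeated symbol. The family was, however, chosen with earlier results of these data known. Each symbol matched a gene, so all 5 are accounted for here. Lox and Loxl3 were expressed at close to equal levels and together made up nearly all of the family's mRNA, and both fell with induction. Loxl1, Loxl2 and Loxl4 lay near the bottom of what was measured and did not pass the test.

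The cells were Met-1 TripZ-200c, derived from a late-stage mammary tumor of an FVB/nJ mouse carrying the polyoma middle T antigen transgene. They carry a lentiviral vector from which doxycycline (Dox) induces the miR-200c precursor together with red fluorescent protein, and they represent a single clone selected by flow cytometry. The 3 libraries called MinusDox received vehicle (water), and the 3 called PlusDox received Dox at 1 µg/mL, in both cases for 48 h. The series holds no empty-vector libraries, so the action of Dox itself and that of miR-200c cannot be told apart in these libraries. By western blot, the paper reports lower ZEB1 and higher CDH1 with Dox in TripZ-200c cells only, not in empty-vector cells. Those blots did not measure the lysyl oxidase family. The cultures were plated separately from that clone, so the p-values measure the spread between cultures of 1 clone.

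Lysyl oxidases are secreted, copper-dependent amine oxidases that turn lysine and hydroxylysine residues of collagens and elastin into aldehydes, which then condense into covalent crosslinks. Lox and Loxl1 are made with a propeptide that bone morphogenetic protein 1 and related proteases remove, whereas Loxl2, Loxl3 and Loxl4 carry scavenger receptor cysteine-rich domains ahead of the catalytic domain. In mammary tumors the family is known for stiffening the collagen matrix, and Loxl2 and Loxl3 are also known for their link to Snai1 and to epithelial-to-mesenchymal transition (EMT).

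Levels are given as FPKM, a gene's fragments scaled to gene length and to the library's mapped reads, so they can be set side by side between genes, but how many reads each rests on cannot be recovered. Summed FPKM ranged from 800267 to 815139, and between 16867 and 18012 genes were above 0 in a library. Relative sequencing depth, estimated from the low values, ranged from 0.914 to 1.48 times that of the first MinusDox library, and both groups spanned lower and higher depths. As a check of the induction, Zeb1 and Zeb2, repressors of the epithelial program and long-known miR-200c targets, fell with Dox, as given among the transcription factors further on. The epithelial cadherin Cdh1 was 0.0776, 0.0559 and 0.0419 FPKM without Dox and 0.554, 0.692 and 1.24 FPKM with Dox. Of 6 markers of mammary epithelium, 3 had a mean of at least 1 FPKM (Krt18, Krt7 and Epcam) and Krt19 was listed at 0, and their summed FPKM was 135 to 144 without Dox and 644 to 681 with Dox. Of 7 macrophage and leukocyte markers, 6 were found by symbol (Adgre1 was not). Ptprc, Csf1r and Itgam did not exceed 0.222 FPKM in any library and Emr1 was listed at 0. Through Cd68 and Cd14 the list summed to 27.4 to 34.4 FPKM without Dox and 32.8 to 38.5 with Dox. Cd14 was called higher with Dox (log2 difference 0.44, limma adjusted p = 0.0171), but not with a replicate block (0.0543). Cd68 was not called (limma adjusted p = 0.326). Of 4 endothelial markers, 1 (Cdh5) had a mean of at least 1 FPKM, and their sum was 4.47 to 5.12 FPKM without Dox and 4.19 to 4.59 with Dox.

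The induced microRNA is shown first, since the family was examined for its sites. The mature strand, from RefSeq on GRCm38.p6 at chr6:124718324-124718346 (minus strand), has 23 bases, and capitals mark its seed, bases 2 to 8.
mmu-miR-200c-3p: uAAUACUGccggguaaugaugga
The complement of that seed, CAGTATT, was searched on the mRNA strand of the longest annotated 3′ UTR of each gene. The 2 members that fell held no match, in 3160 bases for Lox and 1689 bases for Loxl3. Loxl1, with 1173 bases, and Loxl4, with 1352 bases, held none either. Loxl2 held 1 match in 2715 bases, at bases 2008 to 2014 of its 3′ UTR. The site is shown with its surroundings from GRCm38 at chr14:69695116-69695144 (plus strand), the match in capitals.
Loxl2: taatatagggtCAGTATTcattttgcata
At least 1 match was held by 16.1% of the 10798 tested genes with an annotated 3′ UTR. Among genes with a 3′ UTR within 1.25 times the length of that of Lox the share was 31.4%, and for Loxl3 it was 18.6%. For the length of Loxl2, the member with a match, it was 28.6%. A match is a run of letters and not a measured site, and a lack of a match says only that these letters are not in that 3′ UTR.

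Loxl3 (ENSMUSG00000000693), a family member that oxidises collagen and has also been placed in the nucleus as a partner of Snai1, had the larger decrease of the 2 members tested. It lies on GRCm38 at chr6:83034173-83052562 (plus strand) with 14 exons. Its FPKM was 22.3, 23.4 and 23.4 without Dox and 15.1, 14.9 and 15.5 with Dox. Every library with Dox lay below every library without Dox, and the gap between the groups was wider than the spread inside either. The means were 23.1 ± 0.612 and 15.2 ± 0.305 (SD, n = 3 each), so Loxl3 fell by 34.0%. On log2(FPKM + 0.1), the scale of all fold changes given here, which understates the change of low genes, the difference was -0.60 (SE 0.0553, 95% interval -0.73 to -0.47, adjusted p = 0.000797 by limma with Benjamini-Hochberg adjustment over 12879 genes).

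Lox (ENSMUSG00000024529), the founding member and the main enzyme acting on fibrillar collagen, also fell. It lies on GRCm38 at chr18:52516067-52529867 (minus strand) with 7 exons. Its FPKM was 22.2, 22.4 and 24.8 without Dox and 17.2, 18.8 and 17.6 with Dox. The groups did not overlap, but the spread inside each was wider than for Loxl3. The means were 23.2 ± 1.46 and 17.9 ± 0.821 (SD, n = 3 each), so Lox fell by 22.8%. The log2 difference was -0.37 (SE 0.0690, 95% interval -0.53 to -0.21, limma adjusted p = 0.0137). Without PlusDox replicate 3 the log2 difference was -0.36 and the limma adjusted p was 0.0562, so the call was lost while the estimate hardly moved. That fit called 1048 genes in all, against 1935 with every library. With any other single library left out, the limma adjusted p for Lox ran from 0.0305 to 0.0498, so the call lay near the threshold.

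Of the genes tested, 7.97% were called lower with Dox, and 17.6% had every PlusDox library below every MinusDox library. Against that background, 2 of the 2 members tested were called lower, a number too small to set the family apart. Ranked from the largest decrease, Loxl3 was at place 451 and Lox at place 1073 of 12879 tested genes. By mean level Lox was at place 6807 and Loxl3 at place 7071. Both were thus genes of middle abundance, and the decrease of Loxl3 stood nearer the end of the distribution than that of Lox. A decrease of at least 1.5-fold with the same adjusted p threshold was met by 1.79% of genes, Loxl3 among them and Lox not. Since these are bulk libraries, fewer cells making a transcript and less of it per cell cannot be told apart.

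**Figure D1:**
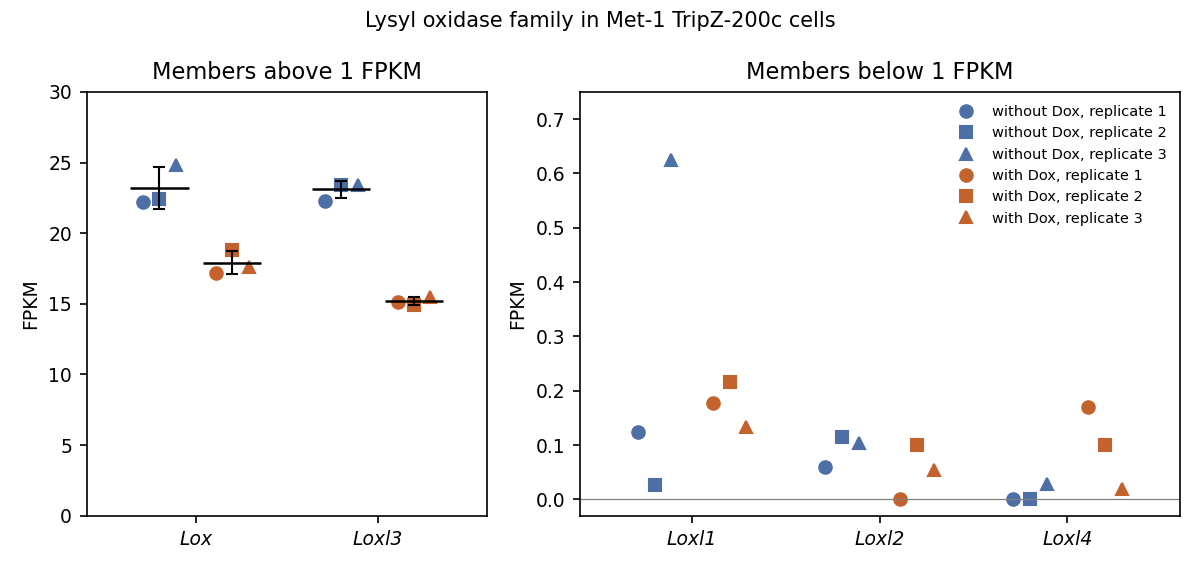
FPKM of each lysyl oxidase family member in each library (left, Lox and Loxl3; right, Loxl1, Loxl2 and Loxl4 on a smaller axis), with circle, square and triangle for replicates 1, 2 and 3. Bars at left are the mean ± SD of 3 libraries, and for Lox and Loxl3 every PlusDox point lies below every MinusDox point, while the low members overlap.

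**Figure D2:**
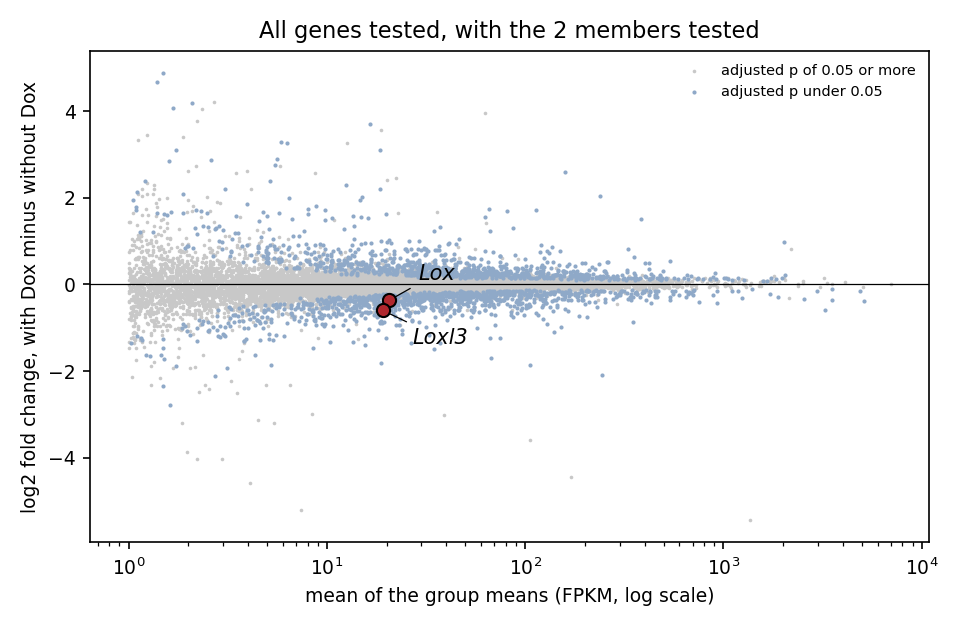
Mean FPKM over the 6 libraries (log axis) against the log2 fold change on FPKM + 0.1 for the 12879 tested genes, with Lox and Loxl3 marked. The decrease of Loxl3, at -0.60, lies deeper in the lower edge of the cloud than that of Lox, at -0.37.

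The balance between these 2 members was then compared. Without Dox, Lox made up 49.6%, 48.8% and 50.7% of the family's summed FPKM and Loxl3 made up 50%, 50.9% and 47.8%, so neither was ahead. With Dox the Lox share was 52.7%, 55.1% and 52.8%, and the Loxl3 share was 46.3%, 43.7% and 46.6%. Lox was thus the higher of both in every library with Dox. The log2 ratio of Lox to Loxl3 was 0.01 ± 0.0732 without Dox and 0.23 ± 0.0855 with Dox (SD, n = 3 each). The difference of 0.23 had a two-sided exact permutation p of 0.1, the smallest that this test can give for 3 libraries against 3, so it could not pass 0.05 by this test. The summed FPKM of the 5 members was 44.7, 46 and 49 without Dox and 32.7, 34.2 and 33.4 with Dox, and Lox and Loxl3 together held 98.5% to 99.7% of it.

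**Figure D3:**
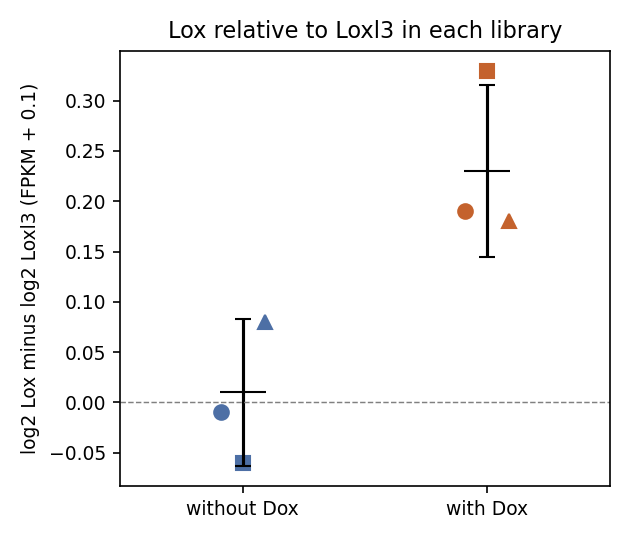
Log2 ratio of Lox to Loxl3 FPKM in each library, with circle, square and triangle for replicates 1, 2 and 3 and the bar for the mean ± SD of 3 libraries. Without Dox the points lie around 0, and with Dox the 3 points lie above them, from 0.18 to 0.33.

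Loxl1 (ENSMUSG00000032334), the member known for elastic fibre maintenance, lies on GRCm38 at chr9:58287738-58313186 (minus strand) with 7 exons. Its FPKM was 0.124, 0.0270 and 0.625 without Dox and 0.178, 0.217 and 0.133 with Dox. MinusDox replicate 3 held the highest value and MinusDox replicate 2 the lowest, with the 3 PlusDox libraries between them. In the fit without a filter on low values (20513 genes) the 95% interval of the log2 difference ran from -1.58 to 1.58 (limma adjusted p = 1.00), so a sizeable change either way was not detectable at this level.

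Loxl2 (ENSMUSG00000034205), which acts on basement membrane collagen and is often raised in invasive breast tumors, lies on GRCm38 at chr14:69609068-69695834 (plus strand) with 14 exons. Its FPKM was 0.0604, 0.115 and 0.104 without Dox and listed at 0, then 0.101 and 0.0536, with Dox. The groups overlapped, and the log2 difference was -0.39 (95% interval -1.17 to 0.38, limma adjusted p = 0.589). This level is uncertain for another reason, since 2411 of the 5267 stretches of 50 bases in its longest coding transcript (45.8%) also occur in other genes. Of these, 2299 are shared with the predicted gene Gm21451, which was listed at 0 in the 6 libraries. The reads were 50 bases long, so a read from such a stretch could not be placed in a single gene. Loxl2, the member with the seed match shown above, therefore gave no usable measurement of a change.

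Loxl4 (ENSMUSG00000025185), a less studied member of the same scavenger receptor branch, lies on GRCm38 at chr19:42593982-42612813 (minus strand) with 15 exons. It was listed at 0 in MinusDox replicates 1 and 2 and was 0.0287 FPKM in replicate 3, against 0.170, 0.10 and 0.0197 FPKM with Dox. PlusDox replicate 3 fell below MinusDox replicate 3, so the groups overlapped. The log2 difference was 0.78 (95% interval -0.05 to 1.61, limma adjusted p = 0.267), a size that depends on the pseudocount and ran from 0.12 to 2.42 when that was 1 or 0.01 FPKM.

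Reads shared with neighbours touched Loxl3 to a smaller degree. The gene overlaps Htra2, a mitochondrial protease on the opposite strand, over 401 of the 4049 stretches of 50 bases in its transcript (9.9%), and the library kit keeps the strand, although the sources used here do not say whether the counting did. Htra2 was 80.7 ± 2.73 FPKM without Dox and 86.7 ± 1.88 with Dox (SD, n = 3 each), with a log2 difference of 0.10 (limma adjusted p = 0.141). Whether reads from Htra2 entered the level of Loxl3, or bear on its change, was not tested. Lox overlaps the antisense gene AC161119.1, and no stretch of 50 bases in the transcripts of Lox, Loxl1 or Loxl4 was shared with another gene.

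The genes whose levels followed Lox and Loxl3 most closely over the 6 libraries are given as a description, because the difference between the groups alone makes many genes correlate. For Loxl3 these were Socs3, a feedback inhibitor of cytokine signalling (Pearson's r = 0.9994), Tob1, an antiproliferative adaptor of mRNA decay (0.9986), and Rbpj, the DNA-binding factor of Notch signalling (0.9986). For Lox they were Cnot8, a deadenylase (0.9971), Samd4, a regulator of translation (0.9965), and Itm2c, a membrane protein (0.9952). A correlation over 0.95 was reached by 527 genes for Loxl3 and by 288 genes for Lox, out of 12874 compared. The decreases of these neighbours were smaller than those of the members themselves. Socs3 went from 30.8 ± 0.878 to 22.2 ± 0.340 FPKM, and Cnot8 from 31.6 ± 1.10 to 27.6 ± 0.721 FPKM (SD, n = 3 each).

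Around the family, 58 genes were listed. Some process procollagen or the pro-enzymes, hold the enzymes in the matrix, serve as substrates or modify the substrate lysines. Others supply copper, control the family's transcription or encode other copper amine oxidases. Of the 58 genes, 39 reached the mean of 1 FPKM needed for the test. Of these 39, 12 were called lower and 4 higher with Dox (limma, adjusted p under 0.05) and 23 were not called. Over all tested genes, 7.97% were called lower and 7.06% higher. The lists were chosen with earlier results of these data known. The 12 also include Zeb1 and Zeb2, used above as a check of the induction. These counts therefore do not test whether the listed genes differ from the rest. The median log2 difference of the 39 was -0.07, and over all tested genes it was 0.00. The other 19 had means over the 6 libraries of at most 0.416 FPKM, and 3 of them (Tll2, Eln and Aoc1) were listed at 0 throughout.

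The list for pro-enzyme processing also holds genes of procollagen trimming, and 2 of its 5 tested genes fell. Pcolce, the enhancer of procollagen C-proteinase, went from 34.1 ± 3.06 to 24.4 ± 2.56 FPKM, a log2 difference of -0.48 (SE 0.0970, limma adjusted p = 0.0178). Adamts14, a procollagen N-proteinase, went from 15.8 ± 0.354 to 8.21 ± 0.287 FPKM (log2 difference -0.94, SE 0.0683, limma adjusted p = 0.000324). Both are best known for the trimming of procollagen. Bmp1, the protease that releases mature Lox and the most abundant gene of this list, was 71.2 ± 0.910 and 68.8 ± 2.02 FPKM (log2 difference -0.05, 95% interval -0.14 to 0.04, limma adjusted p = 0.457).

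Of 7 matrix proteins that hold or position the enzymes, 2 were expressed. Thbs1, which encodes thrombospondin 1, a matrix protein that binds Lox, rose from 239 ± 2.34 to 423 ± 2.97 FPKM (log2 difference 0.82, SE 0.0251, limma adjusted p = 8.78e-06). Fn1, which encodes fibronectin, had 2 usable values per group and was 263 and 274 FPKM on average (log2 difference 0.06, limma adjusted p = 0.371).

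The substrates that these cells expressed were few. Of 10 collagen and elastin genes, 3 were tested, and 2 of them fell. Col4a5, a basement membrane chain, went from 54.8 ± 0.130 to 36.4 ± 0.449 FPKM (log2 difference -0.59, SE 0.0391, limma adjusted p = 0.000213). Col5a1, which regulates fibril assembly, went from 32.5 ± 1.19 to 19.6 ± 0.465 FPKM (log2 difference -0.73, SE 0.0534, limma adjusted p = 0.000328). Col11a1 was 23.3 ± 1.69 and 22.3 ± 2.11 FPKM (limma adjusted p = 0.706). The main fibrillar substrate genes were below the filter, with Col1a1 at a mean of 0.486 FPKM without Dox and 0.346 with Dox. Col1a2, its partner chain, was 0.0300, 0.244 and 0.0687 FPKM without Dox and 0.318, 0.609 and 0.506 FPKM with Dox, every PlusDox library being higher (log2 difference 1.52, 95% interval 0.42 to 2.63, limma adjusted p = 0.115 without the filter). Eln, which encodes elastin, was listed at 0 in the 6 libraries. The transcripts of the classical Lox substrates were thus low or listed at 0 in cells that expressed Lox itself. The 3 tested substrate genes each held 1 seed match, shown here from GRCm38 (plus strand) because 2 of them fell and 1 did not.
Col4a5, chrX:141688995-141689023: gtgtaagaagaCAGTATTtgcttagtctt
Col5a1, chr2:28037309-28037337: tgggggcgggaCAGTATTtgaagatcact
Col11a1, chr3:114220475-114220503: ataatggcataCAGTATTtccaataaaat

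Of 4 tested genes that hydroxylate collagen lysines or fold collagen, 2 fell by small amounts. Plod1, a lysyl hydroxylase, went from 61.8 ± 3.71 to 52.9 ± 0.670 FPKM (log2 difference -0.22, SE 0.0519, limma adjusted p = 0.0308). Serpinh1, the collagen chaperone HSP47 and the most abundant gene of the list, went from 711 ± 3.90 to 615 ± 7.80 FPKM (log2 difference -0.21, SE 0.0228, limma adjusted p = 0.00155). Plod2 and Plod3 were not called, with adjusted p of 0.292 and 0.532 in the same limma fit.

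Of 9 tested genes that supply or buffer copper, 2 fell and 1 rose. Mt1 and Mt2, metallothioneins that bind copper and zinc, fell from 190 ± 14.7 to 128 ± 4.71 FPKM (log2 difference -0.56, limma adjusted p = 0.00138) and from 29.6 ± 4.07 to 17.4 ± 4.73 FPKM (log2 difference -0.79, SE 0.203, limma adjusted p = 0.0427). Cox17, the copper chaperone of mitochondrial cytochrome oxidase, rose from 144 ± 11 to 176 ± 6.76 FPKM (log2 difference 0.29, limma adjusted p = 0.0185). The copper genes closest to the secreted enzymes were not called. Atox1, which hands copper to the Golgi pump, was 161 ± 8.46 and 162 ± 6.66 FPKM (limma adjusted p = 0.980), and Atp7a, the pump that loads lysyl oxidases, had an adjusted p of 0.870 in the same limma fit.

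Among 10 genes of TGF-beta and hypoxia signalling, both known inducers of Lox, limma called 0 lower and 2 higher, and at an unadjusted p under 0.05 Epas1 was also lower and Smad3 also higher. Tgfbr2, the type II receptor, went from 80.6 ± 3.09 to 94.3 ± 1.30 FPKM (log2 difference 0.23, SE 0.0409, limma adjusted p = 0.0119). Tgfb3, a ligand, went from 53.4 ± 0.965 to 59.5 ± 1.26 FPKM (log2 difference 0.15, SE 0.0398, limma adjusted p = 0.0420). Epas1, which encodes HIF-2 alpha, was 7.22 ± 0.520 and 5.51 ± 0.483 FPKM without overlap (log2 difference -0.39, SE 0.111, limma adjusted p = 0.0617). Smad3, which carries the TGF-beta signal to the nucleus, was 47.3 ± 2.47 and 53.5 ± 2.11 FPKM, also without overlap (log2 difference 0.18, SE 0.0553, limma adjusted p = 0.0752). Hif1a, the other oxygen-regulated factor, was 78.1 ± 3.30 and 74.5 ± 2.95 FPKM (limma adjusted p = 0.418).

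Of 5 transcription factors of EMT, 4 fell. Zeb2 was 29.4, 30.7 and 27.9 FPKM without Dox and 9.04, 7.82 and 8.0 FPKM with Dox (log2 difference -1.81, SE 0.0795, limma adjusted p = 4.48e-05). Zeb1 was 41.0, 42.1 and 42.3 FPKM without Dox and 19.8, 20.3 and 23.6 FPKM with Dox (log2 difference -0.98, SE 0.0739, limma adjusted p = 0.000362). On the log2 scale both estimates were larger than those of Lox and Loxl3, and each gene held 5 seed matches in its 3′ UTR. Twist1 (log2 difference -0.25, limma adjusted p = 0.00862) and Snai1 (log2 difference -0.28, limma adjusted p = 0.0301) fell by less. Snai1 held a seed match and Twist1 did not. Snai2, the remaining factor, was 2.37, 1.43 and 2.21 FPKM without Dox and 3.22, 2.33 and 3.13 FPKM with Dox, with overlap (log2 difference 0.53, 95% interval -0.07 to 1.12, limma adjusted p = 0.219), and it held a seed match. Of the other copper amine oxidases, Aoc2 alone was tested, at 3.40 FPKM without Dox and 3.82 with Dox (limma adjusted p = 0.507).

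**Figure D4:**
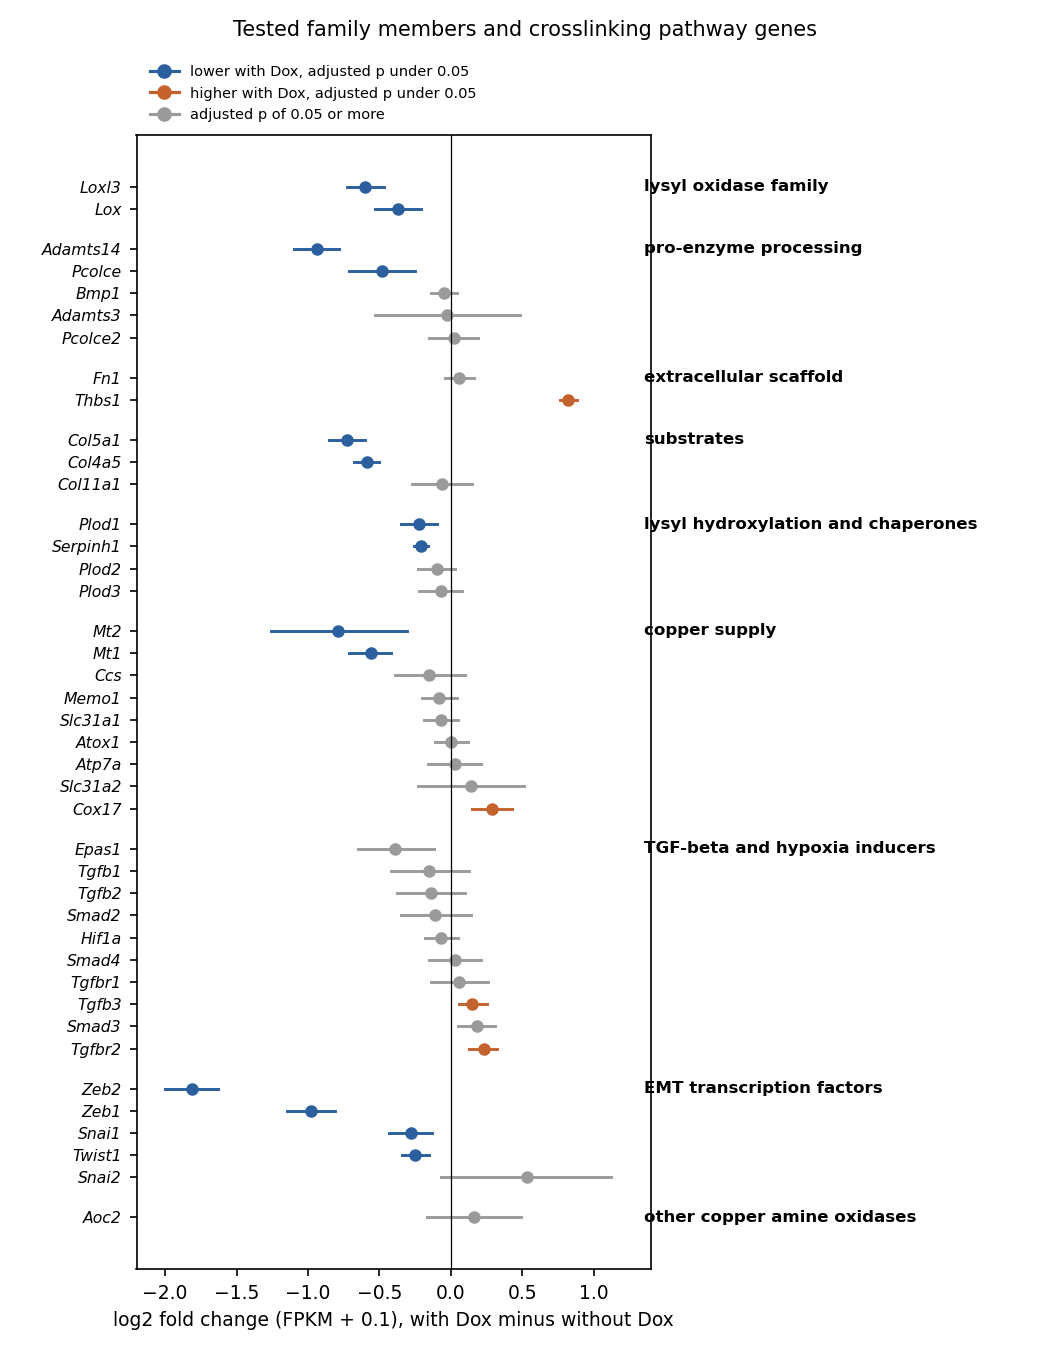
Log2 fold change on FPKM + 0.1, with its 95% interval, for the 2 tested family members and the 39 tested crosslinking pathway genes, grouped by role. Blue marks the genes called lower, orange those called higher and grey those not called, and most genes of the copper and inducer lists lie close to 0 while Zeb2 lies farthest to the left, at -1.81.

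Genes with and without a seed match were found among those that fell, those that rose and those not called. Of the 39 tested pathway genes, 11 held at least 1 match, of which 5 were called lower, 1 higher and 5 neither. Of the 28 without a match, 7 were called lower, 3 higher and 18 neither. The 5 called lower with a match included Zeb1, Zeb2 and Snai1 from the list of EMT factors, and Zeb1 and Zeb2 were listed as long-known targets. How often genes with and without a match were called among all tested genes was not computed. These counts therefore do not show whether a match went with a decrease. Lox, Loxl3, Adamts14 and Pcolce were among the genes that fell without holding one, and Cox17 rose while holding one.

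Of the 16 pathway calls, 9 passed under each of 15 alternative settings of the fit (Adamts14, Thbs1, Col5a1, Col4a5, Serpinh1, Mt1, Zeb1, Zeb2 and Twist1). When a change of at least 1.5-fold was also required, 3 of those 9 (Serpinh1, Mt1 and Twist1) were no longer called. The other 7 kept their direction but lost the call when single libraries were left out. For Plod1 (limma adjusted p from 0.0509 to 0.0890) and Tgfb3 (0.0681 to 0.125) this held for each of the 6 libraries. It held for Snai1 (0.0637 to 0.0965) with each but MinusDox replicate 1 left out, and for Mt2 (0.0657 to 0.125) with each but PlusDox replicate 1. Pcolce lost the call without MinusDox replicate 1 or 2 or PlusDox replicate 1 or 2 (0.0576 to 0.0619), and Cox17 without MinusDox replicate 1 or 2 or PlusDox replicate 1 or 3 (0.0536 to 0.0706). Tgfbr2 lost it without PlusDox replicate 3 (0.0509). Of 6 genes used as markers of fibroblasts and pericytes, only Pdgfra and Pdgfrb had means of at least 1 FPKM, and both were called lower. Pdgfrb had a log2 difference of -1.06 (limma adjusted p = 9.78e-05). For Pdgfra it was -0.27 (limma adjusted p = 0.0410), and the call was lost with a replicate block (0.0828). Dcn and Rgs5 overlapped between the groups, and Lum and Acta2 were listed at 0. The sum of the list was 50.4 to 52.7 FPKM without Dox and 29.9 to 32.3 with Dox, nearly all of it from Pdgfra and Pdgfrb. The cells represent a single clone, so these values describe the clone's own expression. Whether they bear on the decreases of Lox and Loxl3 was not tested.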

How the data were processed

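mRNA from 6 cultures, 3 per group, was sequenced as single reads of 50 bases from stranded libraries. The authors ran gSNAP for alignment and Cufflinks for quantification and deposited 1 FPKM value per gene and library. The submitters' processing notes name GRCm38.p6, and the methods add an FVB/NJ assembly (not used here). FPKM keeps no read number, so depth limits the low members to an unknown degree. The deposited group means, fold scores, p-values and q-values of the authors' own comparison were not used, and 0 columns of per-sample values were left over.

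The table held 43611 rows. Repeated identifiers were represented by their row of highest mean, which dropped 63 rows, and repeated symbols likewise. The placeholder 999999999, in 6 places in 4 genes, was treated as missing, which left Fn1 without a value in MinusDox replicate 3 and PlusDox replicate 3. All 37 mitochondrial genes were listed at 0, so a listed 0 may be a missing estimate, and no mean is given for members with one.

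A linear model with group as its only term was fitted to log2(FPKM + 0.1) of the 12879 genes whose mean reached 1 FPKM, using limma 3.58.1 (R 4.3.3) with a mean-variance trend, and Benjamini-Hochberg adjusted p-values under 0.05 were called. Genes below that mean were taken from the same fit without the filter, over 20513 genes. In data simulated from these libraries, 74.5% of 200 genes changed by 1 log2 unit were recovered and 4.49% of calls were false, over 12875 genes. The log2 differences of Lox (-0.37) and Loxl3 (-0.60) were smaller, and 1935 genes were called in the data. The simulated rates therefore do not carry over to the calls reported here.

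GENCODE gene models on GRCm38 gave coordinates, transcripts and 3′ UTRs. The microRNA sequence is from RefSeq. Named genes were all members, the 3 genes most correlated with each tested member, and from each pathway list the genes called and the gene with the highest mean. Other genes were named after their values were seen. The members and lists were chosen with earlier results of these data known. Other pseudocounts, filters, scalings, models and leaving out each library were tried.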

Additional observations from a re-analysis of the deposited data

How the results depend on the processing

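The 2 family calls and the 16 pathway calls kept their direction under the 15 alternatives of the fit. Loxl3 ranged from -0.62 to -0.57 on the log2 scale and passed 15 of 15, and Lox ranged from -0.41 to -0.32 and passed 14 of 15. Loxl1, near 0 and never called, changed sign to 0.32 with a pseudocount of 0.01 FPKM, to 0.01 with median scaling, and ranged from -0.56 to 0.70 when 1 library was left out (0.70 without MinusDox replicate 3, 0.12 without PlusDox replicate 3). With 1 library left out, 1 to 2 members, 8 to 9 pathway genes lower, 1 to 3 higher and 1048 to 1359 genes in all were called, against 2, 12, 4 and 1935, with fewer libraries in each such fit. Requiring a change of 1.5-fold left 1 member (Loxl3), 6 pathway genes lower, 1 higher and 452 genes in all. Limma without a trend left 10 pathway genes lower and 2 higher. An unmoderated linear model on log2(FPKM + 1) called 1290 genes, among them Loxl3 (adjusted p = 0.00457 by that model) and, near the threshold, Lox (0.0468). It left 8 pathway genes lower and 3 higher, and Pcolce, Plod1, Cox17, Mt2 and Snai1 were no longer called. Little sign of pairing by replicate number was seen: deviations of same-numbered libraries correlated at 0.0287, 0.0359 and -0.00759, against a mean of -0.00951 for different numbers. With 3 libraries per group this cannot show that same-numbered cultures were handled apart. In the fit with a replicate block, Lox (adjusted p = 0.0399 by limma) and Loxl3 (0.00780) were still called, 1337 genes were called in all, and Pcolce (0.0538), Plod1 (0.0718), Tgfb3 (0.108) and Snai1 (0.0681) were not. The unknown read number limits Loxl1, Loxl2 and Loxl4 most.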
